A study of Callithrix jacchus with 6 samples.

Results

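Among the 32323 genes listed for 3 adult common marmoset livers and 3 libraries of a marmoset hepatic progenitor cell line, 194 genes had a moderate level in liver and at the same time a widely different level from one animal to the next. They were chosen on their levels, given as FPKM (fragments per kilobase of transcript per 1000000 mapped reads, which adjusts reads for gene length and library size). A member reached at least 20 FPKM in its highest liver. Its highest liver value was at least 5 times its lowest, after 0.1 FPKM had been added to both. It was above 0 in at least 1 progenitor library, and it was not among the 500 genes with the highest mean in either group. The spread among livers and the rough level of these genes are therefore what chose them and are given as descriptions, with no test.

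The progenitor cells, called MHPCs, were a line grown from fetal marmoset liver and immortalized with the SV40 large T antigen. All 3 MHPC libraries came from clone 1 and are labelled as cells between passages 15 and 30, so their spread covers cultures of a single clone and not animals. The 3 adult livers are labelled as coming from animals 5 to 10 years old, and nothing in the labels links a library number to a passage, an age or an animal. The study's methods describe the MHPC libraries as different passages of the line, but give passages and liver ages that differ from these labels, so that the passages and ages behind the libraries are uncertain. The tissue was bulk liver, in which fewer cells of a type and less RNA per cell cannot be told apart.

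The liver changes its transcription with food intake, with the hour of the day, and with inflammation. Liver pyruvate kinase, an enzyme of glycolysis, follows insulin and carbohydrate intake. Clock factors oscillate daily. When cytokines reach the organ, the transcription factor NF-κB switches on its own inhibitors together with chemokines and survival genes, the hepatocytes secrete acute phase proteins, and many genes of drug and amino acid metabolism are turned down. A progenitor line in culture has no meals, no circulation, and no immune cells of its own, and usually has little of the mature hepatocyte's enzyme repertoire.

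The library totals behind the FPKM values, recovered from them, were between 6501285 and 9682046 reads. Hepatocyte markers fixed for the check (5 of 6 matched) summed to 77675, 40330, and 54620 FPKM in adult livers 1, 2, and 3 and to between 132 and 143 FPKM in the MHPCs, where *ALB*, which encodes albumin, was at 2.39, 2.06, and 2.19 FPKM. Without *ALB* the liver sums were 24929, 27105, and 22128 FPKM, so that the order of the livers rested on this gene. Most of the MHPC sum was *TF*, which encodes transferrin, at 133, 133, and 124 FPKM. *EPCAM*, a surface marker of liver progenitors and bile ducts, was at 0, 0, and 0.479 FPKM in MHPCs 1, 2, and 3, so this marker was at or near 0, whereas the bile duct keratin *KRT7* was at 39.7, 27.8, and 32.3 FPKM. Adult liver 2 stood apart from the other livers. Its rank correlation across genes was 0.916 with adult liver 1 and 0.926 with adult liver 3, against 0.953 between adult livers 1 and 3 and 0.985 to 0.989 among the MHPCs. Genes are not independent replicates, and these coefficients describe the libraries only. Adult liver 2 also held the acute phase protein transcript *SAA1* at 78809 FPKM, against 637 and 22531 FPKM in adult livers 1 and 3, and the neutrophil and monocyte transcript *S100A8* at 849 FPKM, against 13.1 and 23.4 FPKM, although the other matched myeloid markers summed to 73.7, 83.8, and 40.7 FPKM in adult livers 1, 2, and 3. No record of health, feeding or hour of sampling was tied to a liver in the sources used here.

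In all, 4016 genes reached 20 FPKM in a liver, and 299 of these spanned the required ratio. Of the 299, 105 were left out: 59 were at 0 in every MHPC library, 48 were among the most abundant liver genes, and 12 were among the most abundant MHPC genes, with some on more than 1 of these counts. Of the 194 members, 120 could be paired with a gene symbol and 74 could not. The members just inside the ratio limit stood at 5.05 and 5.06 and the genes just outside at 4.99 and 4.99. The members just inside the level limit reached 20.04 and 20.5 FPKM and the genes just outside 19.9 and 19.8 FPKM.

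Which liver carried the high value was not spread evenly over the animals. Adult liver 1 held the highest value of 79 members (40.7%), adult liver 2 of 92 (47.4%), and adult liver 3 of 23 (11.9%). Over the 13620 genes with at least 1 FPKM in at least 3 libraries, which are called the tested genes from here on, the corresponding shares were 39.9%, 21.6%, and 37.8%. When libraries were scaled by size factors, a scaling to the typical gene, the members divided into 79, 93, and 22, but the shares over tested genes became 33.7%, 37.7%, and 27.9%, so the reference shares for adult livers 2 and 3 move with the scaling. The lowest value fell in adult liver 1 for 66 members, in adult liver 2 for 86, and in adult liver 3 for 42. Adult liver 2 was thus at one end or the other for 178 of the 194 members (91.8%), against 76.5% of tested genes.

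**Figure D1:**
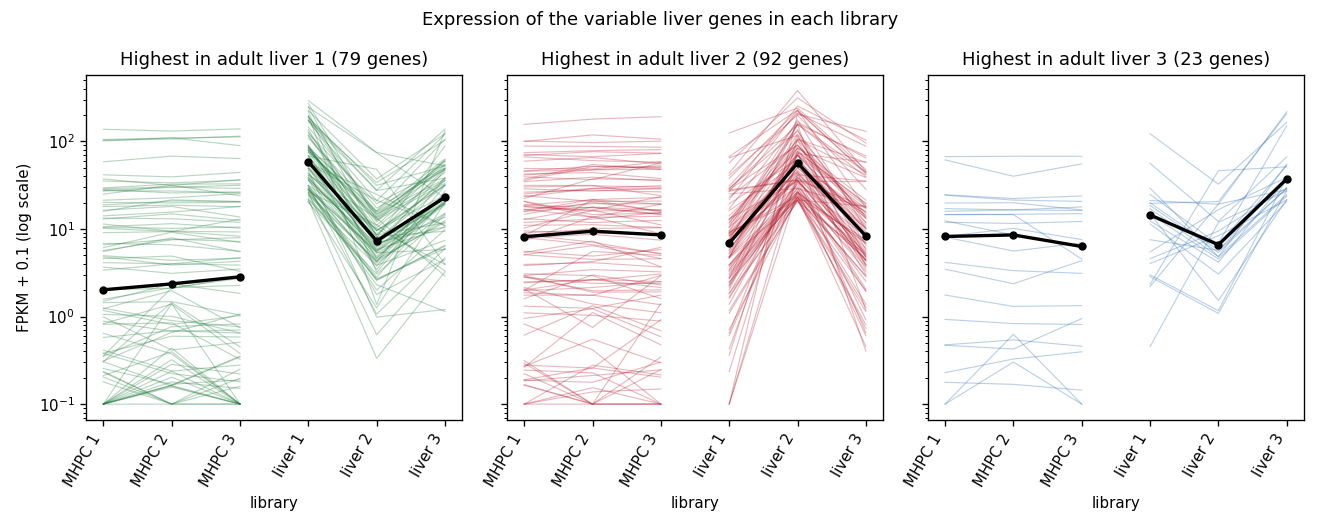
FPKM plus 0.1 on a log axis (vertical) of the 194 members in MHPCs 1 to 3 and adult livers 1 to 3 (horizontal), in a panel for each liver that holds the highest value (79, 92, and 23 genes). Each coloured line is a gene and the black line is the median. The livers fan out while most lines stay level across the MHPC libraries, whose 3 values carry no order.

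The commonest arrangement was high in adult liver 1 and low in adult liver 2, which 70 members showed, followed by the opposite arrangement in 59 members and by high in adult liver 2 and low in adult liver 3 in 33. The remaining members were 16 with adult liver 3 high and adult liver 2 low, 9 with adult liver 1 high and adult liver 3 low, and 7 with adult liver 3 high and adult liver 1 low. Adult livers 1 and 2 alone differed at least 5 times in 149 members, adult livers 2 and 3 in 95, and adult livers 1 and 3 in 56. Had the rule been applied to adult livers 1 and 3 only, it would have found 43 genes, against 93 for adult livers 2 and 3 and 144 for adult livers 1 and 2.

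The ratio of highest to lowest liver had a median of 8.98 and reached 10 in 88 members and 100 in 8. The median highest value was 53.5 FPKM and the median lowest value 5.19 FPKM. Each liver is 1 library, so no error between samples of a liver can be given. Reads were recovered from the FPKM values to put a counting error on each ratio, which does not cover the preparation of the tissue or library. Ratios are given with the 0.1 FPKM of the rule added, and their 95% counting intervals are of the read counts scaled to library size, without it. The lowest liver held a median of 73 reads per member. It held fewer than 10 reads in 20 members and 0 reads in 3. The lower bound of the 95% interval of the read ratio (exact binomial, Clopper-Pearson) was at or above 5 in 161 of the 194 members. The members and their highest and lowest livers were chosen on these same values. The intervals therefore do not keep their stated coverage, and this count describes read depth and is no support for the ratios. On a log scale, the middle liver lay nearer to the lowest than to the highest in 65 of the 92 members highest in adult liver 2. This was so in 25 of the 79 members highest in adult liver 1 and in 9 of the 23 highest in adult liver 3.

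To describe what the genes do, the 120 named members were sorted by hand into broad roles after their values had been seen, so the counts below are descriptions. Metabolic enzymes were 28, of which 22 were highest in adult liver 1. Immune and NF-κB genes were 21, of which 19 were highest in adult liver 2. Transporters and carriers were 11, with 6 highest in adult liver 1, 3 in adult liver 2, and 2 in adult liver 3. Matrix and adhesion genes were 9, with 3 highest in adult liver 1 and 6 in adult liver 2. Clock and early response transcription factors were 4, and 47 genes had other roles, 20 of them highest in adult liver 1, 22 in adult liver 2, and 5 in adult liver 3. Genes outside the naming rule are singled out below as examples of a role, and were likewise chosen after their values were seen.

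**Figure D2:**
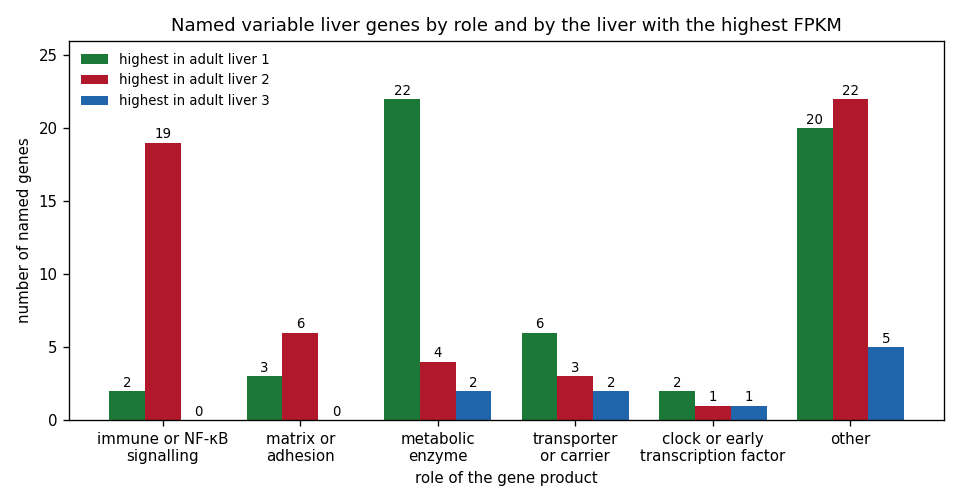
Number of named members (axis in genes) in each hand-sorted role, with a bar for each liver that held the highest value. Enzymes stand under adult liver 1 (22 of 28) and immune and NF-κB genes under adult liver 2 (19 of 21).

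The enzymes highest in adult liver 1 ran in the order adult liver 1, adult liver 3, adult liver 2 in all but 1 case, since 21 of the 22 were lowest in adult liver 2. Of all 79 members highest in adult liver 1, 70 were lowest in adult liver 2, so this order was not particular to the enzymes. The exception was *HSD17B6*, an enzyme of androgen and retinol metabolism, at 292, 74.6, and 52.3 FPKM in adult livers 1, 2, and 3. Across the 22 genes the values ran from 20.04 to 292 FPKM in adult liver 1, from 0.520 to 74.6 FPKM in adult liver 2, and from 4.62 to 138 FPKM in adult liver 3.

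*PKLR*, which encodes the liver pyruvate kinase of the last step of glycolysis, was at 271, 12.5, and 61.4 FPKM in adult livers 1, 2, and 3. Its ratio was 21.6 (counting interval of the ratio, 19.3 to 24.5). The gene stepped down in the order adult liver 1, adult liver 3, adult liver 2. *IRS1*, an adaptor that carries the insulin signal inward from its receptor, was at 25.9, 2.48, and 6.40 FPKM, and there adult livers 2 and 3 lay closer together than either did to adult liver 1.

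Amino acid and vitamin metabolism was represented by several steps of the kynurenine route, which breaks down tryptophan. *AFMID*, which encodes arylformamidase, was at 88.8, 4.54, and 24.8 FPKM in adult livers 1, 2, and 3. *HAAO*, which encodes 3-hydroxyanthranilate dioxygenase, was at 82.7, 10.2, and 44.3 FPKM, and *IDO2*, a tryptophan-opening dioxygenase, at 36.0, 6.57, and 13.5 FPKM. All 3 genes held the same order of livers, and none of them passed 1 FPKM in any MHPC library. *CYP26A1*, which degrades retinoic acid, was at 31.2, 0.964, and 5.88 FPKM in the livers, a ratio of 29.4 (counting interval of the ratio, 19.5 to 58.3).

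Several enzymes of drug and fatty acid metabolism are shown as examples of this order. *CES4A*, a carboxylesterase, was at 25.6, 0.520, and 4.62 FPKM in adult livers 1, 2, and 3, with a ratio of 41.5 (counting interval of the ratio, 25.8 to 109). *FMO1*, a flavin-containing monooxygenase that oxidizes drugs, was at 136, 7.37, and 23.5 FPKM and *CYP2D8*, a cytochrome P450, at 123, 19.4, and 49.6 FPKM. *CAT*, which encodes the peroxide-splitting catalase of peroxisomes, stood near the limit of the rule, at 175, 33.7, and 103 FPKM. *GPAM*, which starts the synthesis of triglycerides, differed in that adult livers 1 and 3 were alike and adult liver 2 alone was low, at 49.1, 6.19, and 46.8 FPKM.

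The remaining 6 enzymes did not follow this order. Highest in adult liver 2 were *ACSS1*, which makes acetyl-CoA from acetate in mitochondria, at 7.24, 157, and 44.4 FPKM in adult livers 1, 2, and 3, and *GGT1*, which breaks down glutathione, at 37.6, 226, and 17.4 FPKM. *GYG1*, the protein primer of glycogen, was at 4.58, 40.1, and 5.11 FPKM and *UPP1*, a uridine phosphorylase, at 6.78, 38.1, and 15.8 FPKM. Highest in adult liver 3 were *AASS*, which starts the breakdown of lysine, at 5.36, 16.5, and 38.6 FPKM, and *PNPLA3*.

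**Figure D3:**
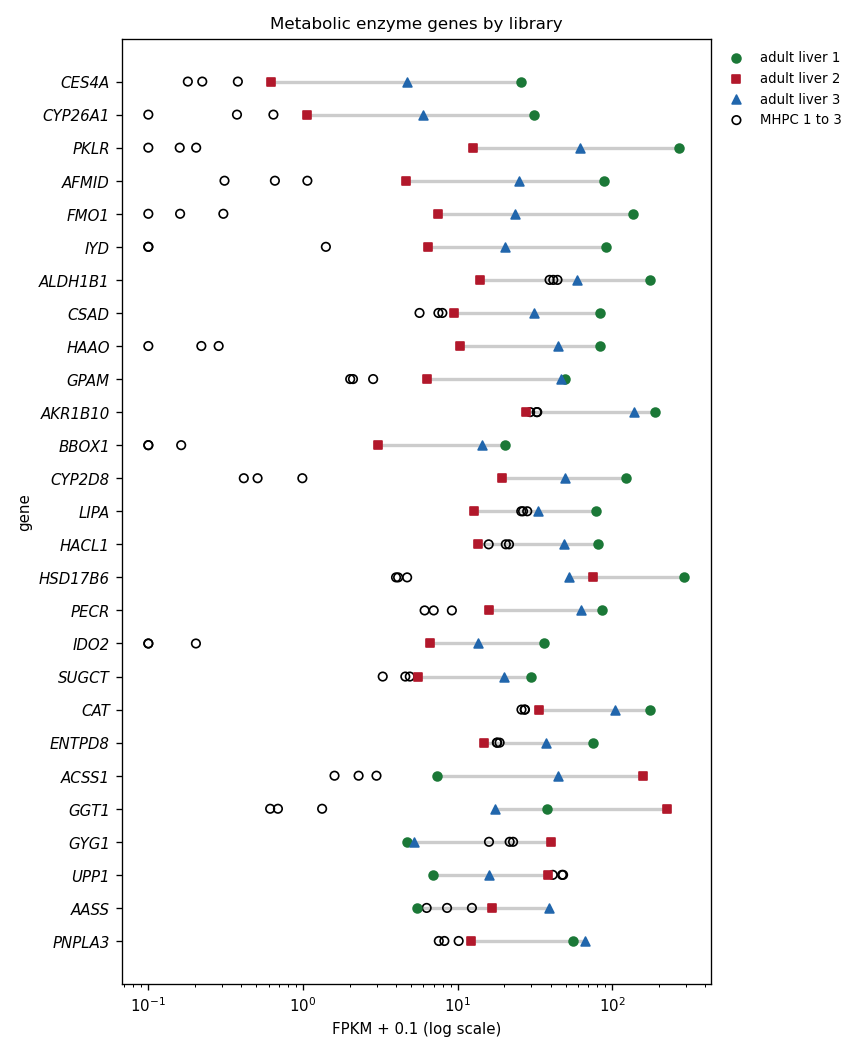
FPKM plus 0.1 on a log axis (horizontal) of 27 of the 28 members sorted as metabolic enzymes (vertical). Filled symbols are the 3 livers joined by a grey line, and open circles are the 3 MHPC libraries. Adult liver 1 is at the right-hand end in 21 of the plotted genes, and in 11 the MHPC mean was under 1 FPKM.

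The transporter genes included the widest ratio of any named member that was highest in adult liver 1. *SLC22A7*, which encodes the organic anion transporter 2 of the hepatocyte's blood-facing membrane, was at 198, 1.27, and 132 FPKM in adult livers 1, 2, and 3, a ratio of 145 (counting interval of the ratio, 105 to 244). Only adult liver 2 was low for this gene. *SLC51A*, a subunit of the bile acid exporter, showed the same picture at 20.6, 1.15, and 20.01 FPKM, and *TTPA*, the carrier of vitamin E, stepped down at 49.0, 9.60, and 24.0 FPKM. *NECAB2*, which encodes a calcium-binding protein best known from neurons, was at 21.3, 0.233, and 3.14 FPKM, with a ratio of 64.4 (counting interval of the ratio, 25.0 to 762) that rested on few reads in adult liver 2.

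The immune and NF-κB genes ran the other way. For the 19 of them that were highest in adult liver 2, the values ran from 21.4 to 222 FPKM in that liver, from 1.51 to 28.8 FPKM in adult liver 1, and from 0.548 to 44.03 FPKM in adult liver 3. *TNFAIP3*, which encodes the A20 protein that shuts NF-κB signaling off, was at 2.63, 115, and 6.42 FPKM in adult livers 1, 2, and 3. Its ratio was 41.9 (counting interval of the ratio, 34.7 to 55.3). *BIRC3*, a ubiquitin ligase that protects from cell death in tumor necrosis factor signaling, was at 2.20, 103, and 3.69 FPKM, with a ratio of 44.8 (counting interval of the ratio, 30.7 to 75.0). In both genes adult livers 1 and 3 were low and close together.

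The subunits and kinases of the pathway followed. *NFKB2* and *RELB*, which encode the partners of the noncanonical NF-κB dimer, were at 14.0, 76.9, and 19.2 FPKM and 8.56, 53.9, and 15.3 FPKM. *IKBKE*, a kinase related to the IκB kinases, was at 1.58, 22.7, and 2.81 FPKM, and *IRAK2*, which relays interleukin-1 and Toll-like receptor signals, at 2.36, 25.7, and 6.85 FPKM. *IRF1*, a transcription factor induced by interferon and cytokines, was at 12.7, 89.7, and 15.1 FPKM. In each of these genes the highest liver was adult liver 2 and the lowest was adult liver 1.

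Among the genes usually expressed by leukocytes, *IL1B*, the cytokine interleukin-1β, was at 4.70, 83.8, and 4.56 FPKM in adult livers 1, 2, and 3. *NCF1*, a subunit of the phagocyte NADPH oxidase, was at 4.72, 26.3, and 5.27 FPKM. *PGLYRP1*, a peptidoglycan-binding protein of neutrophil granules, was at 2.69, 29.3, and 1.83 FPKM. Fixed myeloid markers (4 of 7 matched) summed to 86.7, 933, and 64.1 FPKM in adult livers 1, 2, and 3, with *S100A8* making up most of the sum in adult liver 2, and to between 0.161 and 0.335 FPKM in the MHPCs. Endothelial markers (4 of 4 matched) summed to 62.2, 84.4, and 61.7 FPKM in the livers. Markers of stellate cells and fibroblasts (3 of 4 matched) summed to 162, 59.0, and 58.4 FPKM in the livers, and those of bile ducts (2 of 4) to 30.1, 9.48, and 12.1 FPKM. Those of smooth muscle (2 of 3) summed to 22.8, 9.42, and 5.25 FPKM, an order set by *ACTA2*, since *MYH11* was at 0.963, 3.14, and 1.11 FPKM. In MHPCs 1, 2, and 3 the smooth muscle sums were 498, 272, and 353 FPKM. The stellate and fibroblast sums were 1667, 2526, and 2041 FPKM there, mostly from *COL1A1*. *DCN* was at 9.65, 41.9, and 29.5 FPKM in the MHPCs, against 107, 34.4, and 42.1 FPKM in the livers. Erythroid markers (3 of 5) summed to 24.4, 26.8, and 2.89 FPKM in the livers. Lymphoid markers (2 of 4) summed to 6.64, 3.53, and 2.37 FPKM, and both were highest in adult liver 1. The plasma cell marker *MZB1* was at 6.12, 15.6, and 2.37 FPKM. On the myeloid list *CD163* was highest in adult liver 1, at 41.0, 38.5, and 24.2 FPKM, and the other 3 in adult liver 2. The part of these cells in the values of the members was not tested. The members that were highest in adult liver 1 in this role were *Caja-DQA*, an antigen-presenting class II gene, at 63.6, 3.33, and 31.4 FPKM and *OXER1*, a receptor for oxidized fatty acids, at 65.4, 7.18, and 31.7 FPKM. Class II genes and cytochromes P450 such as *CYP2D8* have close relatives with which reads may be shared, and their values are uncertain to that extent.

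The NF-κB genes divided by their level in the MHPCs, a measure that the rule bounded only at the top and at 0. Of the 19 genes highest in adult liver 2, 12 had an MHPC mean of at least 10 FPKM and 6 had a mean under 1 FPKM. *TNFAIP3* was at 31.3, 31.3, and 23.8 FPKM in MHPCs 1, 2, and 3, which lay between adult liver 2 and the other livers. *NFKB2* was at 74.1, 78.2, and 80.4 FPKM and *RELB* at 68.8, 76.1, and 73.1 FPKM, close to or above the FPKM of adult liver 2, although below adult liver 2 with size factors. In contrast, *IL1B* was at 0.0898, 0.159, and 0.103 FPKM and *NCF1* at 0.123, 0, and 0 FPKM, below every liver.

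**Figure D4:**
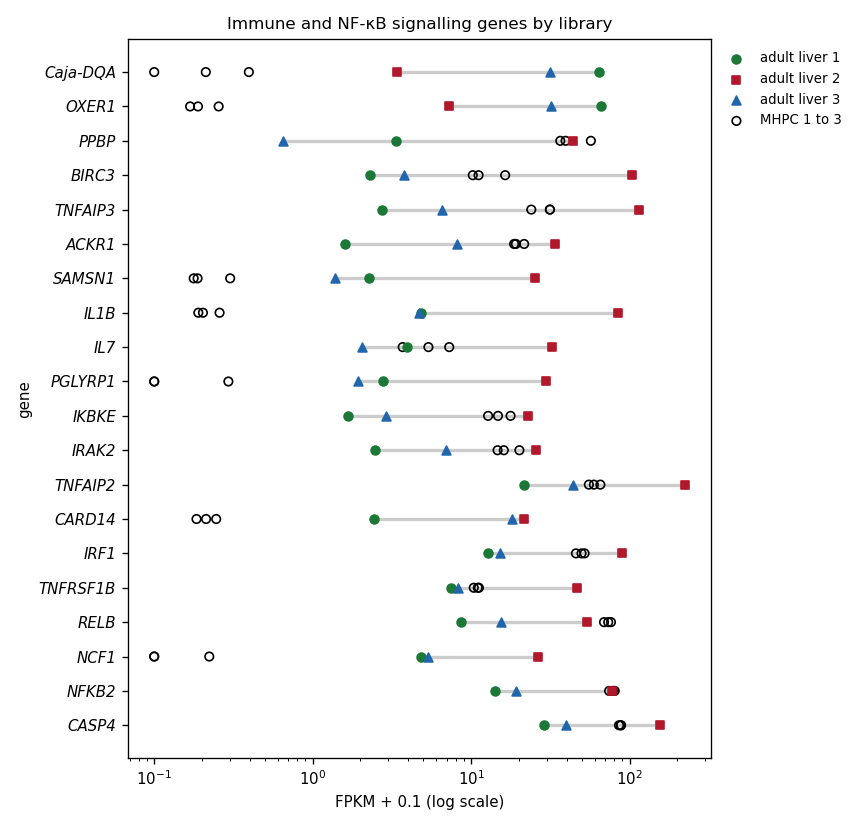
FPKM plus 0.1 on a log axis (horizontal) of 20 of the 21 members sorted as immune or NF-κB genes (vertical). Filled symbols are the 3 livers joined by a grey line, and open circles are the 3 MHPC libraries. Adult liver 2 is at the right-hand end in 18 of the plotted genes. The MHPC circles lie at 10 FPKM or more on average in 12 genes and under 1 FPKM in 7.

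Other members that were highest in adult liver 2 included 7 of the 8 ratios of at least 100. *SLC34A2*, which encodes a sodium and phosphate cotransporter of epithelia, was at 0, 41.8, and 10.2 FPKM in adult livers 1, 2, and 3. The 0 reads in adult liver 1 allow up to 0.0987 FPKM (3 reads), and the exact counting interval put adult liver 2 at least 344-fold higher. *STEAP2*, a metal reductase, was at 0.546, 60.8, and 8.87 FPKM, a ratio of 94.2 (counting interval of the ratio, 61.9 to 223), and its relative *STEAP1* was at 1.74, 35.5, and 4.27 FPKM. *PPBP*, a chemokine stored in platelets, was at 3.27, 44.0, and 0.548 FPKM, a ratio of 68.0 (counting interval of the ratio, 27.1 to 391), and was at 39.3, 36.4, and 56.8 FPKM in the MHPCs. The largest ratio by the rule belonged to ENSCJAG00000025221, for which no symbol was found, at 0, 205, and 130.0 FPKM in the livers. With 0 reads in adult liver 1, the exact counting interval bounds its ratio only from below, at 63.0.

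Matrix and adhesion genes that were highest in adult liver 2 were led by *ADAMTS4*, a protease that cleaves aggrecan, at 0.608, 23.0, and 0.356 FPKM in adult livers 1, 2, and 3, a ratio of 50.7 (counting interval of the ratio, 35.9 to 130.0). *MMP9*, a gelatinase, was at 2.60, 23.2, and 7.41 FPKM and *TIMP1*, an inhibitor of such proteases, at 66.9, 228, and 42.6 FPKM. Adult liver 2 was the highest for all 3 genes, and for *TIMP1* the MHPCs, at 156, 179, and 191 FPKM, fell within the range of the livers. *CDH1*, the epithelial adhesion protein E-cadherin, went the opposite way, at 87.9, 7.18, and 38.1 FPKM in the livers, a ratio of 12.1 (counting interval of the ratio, 10.6 to 14.2), and at 0, 0.0790, and 0.0513 FPKM in the MHPCs. It was the only member on the fixed list of genes expressed around the portal vein (5 of 8 matched), and the only gene of the 5 that was highest in adult liver 1, since 1 was highest in adult liver 2 and 3 in adult liver 3. *HAL*, which breaks down histidine and was not a member, spanned the ratio in the opposite direction, at 11.1, 172, and 57.4 FPKM.

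*RPL3*, a ribosomal protein gene, was at 27.7, 36.2, and 0.821 FPKM in the livers and 45.5, 47.2, and 52.5 FPKM in the MHPCs, so only adult liver 3 was low. Ribosomal protein genes have near-identical copies in the genome between which reads can be divided, and this value is uncertain.

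The 23 members that were highest in adult liver 3 were few and of mixed roles. *ANGPTL8*, a hormone-like inhibitor of lipoprotein lipase that follows feeding, was at 21.0, 19.1, and 217 FPKM in adult livers 1, 2, and 3, so that adult liver 3 alone was high, with a ratio of 11.3 (counting interval of the ratio, 9.76 to 13.3). *PNPLA3*, a lipid droplet protein, was at 55.9, 12.1, and 66.3 FPKM, so that adult liver 2 alone was low. It was the only member on the fixed list of fat synthesis genes, of which 6 of the 7 matched were highest in adult liver 3. *SLC25A18*, a mitochondrial glutamate carrier, was at 12.2, 4.08, and 37.1 FPKM, and *PLK2*, a stress-induced kinase of the polo family, at 24.7, 6.50, and 53.0 FPKM. *TAGLN3*, a relative of the actin-binding transgelin, was at 2.23, 46.1, and 51.1 FPKM, and there adult livers 2 and 3 were both high and adult liver 1 was low, a ratio of 22.0 (counting interval of the ratio, 13.4 to 42.4).

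The 4 clock and early response factors had no common order. *NR1D1*, which encodes the clock repressor REV-ERBα, was at 3.59, 26.4, and 6.66 FPKM in adult livers 1, 2, and 3. *TEF*, a clock-controlled activator, was at 3.93, 8.25, and 21.3 FPKM. Of the fixed clock genes, 10 of 12 were matched, and 4, 2, and 4 of them were highest in adult livers 1, 2, and 3. *FOS*, an early response gene that also responds to tissue handling, was at 58.6, 6.85, and 10.5 FPKM and *NR4A1*, another, at 67.7, 47.9, and 3.85 FPKM, both highest in adult liver 1 but with different lowest livers. Of the fixed early response genes, 5 of 12 were matched, and 3 and 2 were highest in adult livers 1 and 2.

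Genes of related functions that were measured but were not members were examined on the other fixed lists. Adult livers 1, 2, and 3 were highest for 3, 1, and 3 of the 7 matched fasting genes and for 5, 1, and 2 of the 8 pericentral genes. The counts were 3, 6, and 1 for the 10 cholesterol genes and 2, 1, and 0 for the 3 heat shock genes. None of these was a member. None of the 10 matched acute phase genes was a member, although *SAA1*, *SAA4*, and *LBP* spanned the ratio of 5, and 1, 4, and 5 of them were highest in adult livers 1, 2, and 3. None of the 8 matched interferon-responsive genes was a member, although *IFIT1* spanned the ratio, and all 8 were lowest in adult liver 2. None of the 9 matched drug and toxin metabolism genes of the list was a member, although *UGT2B4* and *CYP2C8* spanned the ratio, and 6 of them were lowest in adult liver 2. Of all tested genes, 54.9% were lowest in adult liver 2, or 35.9% with size factors.

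In the comparison of MHPCs with livers by limma, the lists that hold members and the acute phase, interferon, and drug and toxin metabolism lists were called as follows. Beside them stand 65.2% of all tested genes called higher and 15.4% called lower, or 31.2% and 31.1% with size factors. Of the 10 clock genes tested, 4 were called higher in the MHPCs and 0 lower, which became 2 and 3 with size factors. Of the 7 fat synthesis genes, 1 was called higher and 3 lower (1 and 5 with size factors), and of the 5 early response genes, 1 higher and 2 lower (0 and 2). All 5 periportal genes were called lower with either scaling, as were all 10 acute phase genes and all 9 drug and toxin metabolism genes. Of these, 3 periportal, 6 acute phase, and 4 drug and toxin metabolism genes were under 1 FPKM in every MHPC library and passed the filter through the livers alone, which fixed their direction. Of the 8 interferon-responsive genes, 8 were called higher with FPKM and 7 with size factors.

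The level of the members in the MHPCs, to which the rule set only an upper and a lower bound, differed between the sets of genes. The median MHPC mean was 2.22 FPKM for the members highest in adult liver 1, 8.98 FPKM for those highest in adult liver 2, and 8.54 FPKM for those highest in adult liver 3. A mean under 1 FPKM was found in 34 of 79 (43.0%), 20 of 92 (21.7%), and 7 of 23 (30.4%). A mean of at least 10 FPKM was found in 26 (32.9%), 43 (46.7%), and 10 (43.5%). These shares are given without a test, because the members were chosen on the same table and are not independent.

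The 3 libraries of each group were also compared with limma on log2(FPKM + 1), a scale that understates the change of low genes. In this contrast 186 members passed the filter on low values, of which 43 passed it with less than 1 FPKM in every MHPC library and so had to lie lower there. Since the rule used the liver values, nothing is read from the counts, which stand beside the share of all tested genes. Of the 186 members, 11 were called higher in the MHPCs, beside 65.2% of the tested genes. A further 82 were called lower, beside 15.4% of the tested genes. With size factors, 2 were called higher and 103 lower, beside 31.2% and 31.1%. The size factors lowered the median difference over tested genes from 1.09 to 0.03 on the log2 scale. The count of 11 became 36 without adult liver 2 and 7 without MHPC 2 or without MHPC 3. The remaining 93 members passed the filter without a call.

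Counted by non-overlap of the libraries in FPKM over all 194 members, 91 lay lower in every MHPC library than in every liver, beside 16.0% of the tested genes. Another 16 lay above every liver, beside 67.2%. In 72 members all MHPC values fell between the lowest and the highest liver, and 15 lay partly outside. The wide range among livers makes such an inclusion likely by construction. The median log2 difference in FPKM was -2.30 for the members highest in adult liver 1, -0.83 for those highest in adult liver 2, and -0.76 for those highest in adult liver 3. Over all members that passed the filter it was -1.54, or -2.58 with size factors, beside 1.09 and 0.03 over the tested genes.

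Among members with a symbol, those with the largest differences downward included a liver enzyme, a secreted nuclease, and a transporter. All 3 were under 1 FPKM in every MHPC library and passed the filter through the livers that the rule required to be high, so their direction was fixed by the choice and no test is given for them. *PKLR* was at 0.104, 0, and 0.0596 FPKM in MHPCs 1, 2, and 3 (log2 difference -5.86 ± 0.97 (SE)). *RNASE1*, a secreted ribonuclease, was at 0.313, 0.138, and 0.180 FPKM in the MHPCs and 173, 27.4, and 37.9 FPKM in the livers (log2 difference -5.58 ± 0.63 (SE)). *SLC22A7* was at 0, 0.0564, and 0 FPKM in the MHPCs (log2 difference -5.26 ± 1.58 (SE)). Of the 26 enzymes that passed the filter, 8 did so with less than 1 FPKM in every MHPC library. Of the 26, 18 were called lower and 1 higher, beside 15.4% and 65.2% of the tested genes, and with size factors 23 were called lower and 0 higher, beside 31.1% and 31.2%. As the liver values chose the genes, nothing is read from these counts.

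The largest differences upward among members with a symbol are likewise given without a test, since the rule chose these genes on the liver values that enter the contrast. Some members without a symbol had differences as large. *NT5DC2*, a nucleotidase family gene, was at 101, 109, and 112 FPKM in MHPCs 1, 2, and 3 and 28.1, 5.25, and 5.73 FPKM in adult livers 1, 2, and 3 (log2 difference 3.34 ± 0.56 (SE)). *RAB34*, a small GTPase of vesicle traffic and cilia, was at 137, 131, and 139 FPKM in the MHPCs and 37.9, 6.07, and 22.5 FPKM in the livers (log2 difference 2.88 ± 0.57 (SE)). *PHLDA2*, an imprinted gene known for restraining placental growth, was at 101, 96.8, and 100.3 FPKM in the MHPCs and 4.74, 50.4, and 8.19 FPKM in the livers (log2 difference 2.85 ± 0.74 (SE)). In these 3 genes all MHPC libraries lay above all livers in FPKM, and with size factors their log2 differences were 2.14, 1.65, and 1.63. The FPKM are divided by the size factors, which were 1.56, 1.57, and 1.53 for MHPCs 1, 2, and 3 and 0.557 for adult liver 2. Scaled in this way, *PHLDA2* was highest in adult liver 2. For *PPBP* the FPKM of adult liver 2 lay among those of the MHPCs (log2 difference 2.73 ± 1.11 (SE), or 1.63 with size factors).

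Of the NF-κB genes, *RELB* in FPKM lay above every liver in the MHPCs (log2 difference 1.85 ± 0.58 (SE)), and for *NFKB2* the FPKM of adult liver 2 lay among those of the MHPCs (log2 difference 1.45 ± 0.57 (SE)). With size factors these differences were 0.62 and 0.21, and adult liver 2 lay above every MHPC library for both genes. The difference of *TNFAIP3* (log2 difference 1.02 ± 1.17 (SE)) became -0.16 with size factors and that of *TEF* (log2 difference 0.80 ± 0.50 (SE)) became -0.36, so neither had a direction that held under both scalings. *NR1D1* (log2 difference 1.49 ± 0.60 (SE)) and *FOS* (log2 difference -0.07 ± 0.70 (SE)) kept their sign, at 0.31 and -1.24. *PNPLA3* lay below every liver in the MHPCs (log2 difference -1.96 ± 0.59 (SE)). *CDH1* (log2 difference -4.87 ± 0.78 (SE)), *ANGPTL8* (log2 difference -5.24 ± 0.87 (SE)), *TAGLN3* (log2 difference -3.50 ± 1.01 (SE)), and *SLC25A18* (log2 difference -3.19 ± 0.67 (SE)) were under 1 FPKM in every MHPC library and passed the filter through the livers, so their direction was fixed by the choice. The genes *SLC34A2*, *NECAB2*, *CES4A*, and *CYP26A1* did not reach the filter on low values.

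**Figure D5:**
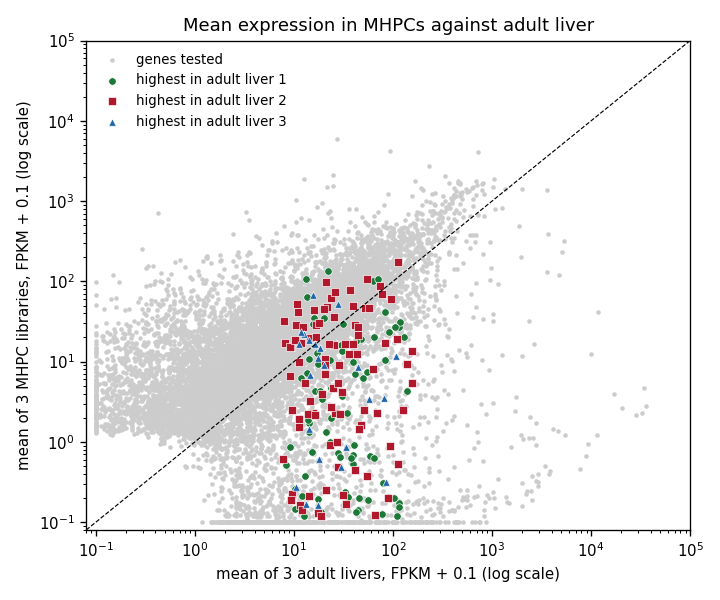
Mean FPKM plus 0.1 of the 3 MHPC libraries (vertical) against that of the 3 adult livers (horizontal), both on log axes. Grey points are the tested genes and coloured points the members, by the liver with the highest value. The members highest in adult liver 1 reach lower on the MHPC axis, with a median of 2.22 FPKM against 8.98 FPKM for those highest in adult liver 2.

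The spread within the MHPC libraries was not used to choose the members. The median SD over the 3 libraries was 0.128 on the log2(FPKM + 1) scale, against 0.118 over the tested genes and 0.0994 over the 2912 genes that met every other condition of the rule but spanned less than 5 times among livers. With 0.1 FPKM added in place of 1, the median SD of the members was 0.236, since the pseudocount of 1 compresses the spread of low genes. In the livers the medians with 1 FPKM added were 1.58 for the members, 0.314 for the tested genes, and 0.317 for the genes that spanned less. The highest MHPC value was at least 2 times the lowest in 43 members (22.2%), against 7.84% of the tested genes and 4.57% of the genes that spanned less. The members were low in the MHPCs, however, and among genes with an MHPC mean of at least 5 FPKM the share was 2 of 99 members (2.02%), against 2.23% of the tested genes and 21 of 2605 genes that spanned less (0.806%). The median SD at this level was 0.120 for the members, 0.108 for the tested genes, and 0.0954 for the genes that spanned less. The livers were different animals and the MHPCs cultures of a single clone, so the 2 spreads are not of the same kind. The median gene length was 1503 bases for the members, 1568 for the genes that spanned less, and 1743.5 for the tested genes. These lengths were recovered with the reads and are lower bounds where a factor was shared.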

How the data were processed

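Gene expression was measured by single-end RNA sequencing in 3 MHPC libraries and 3 adult livers, from a kit that does not mark strand. The deposited values are FPKM. Per the labels, the submitters' processing notes name TopHat2 2.0.9, Bowtie2 2.0.6, and HTSeq 0.6.1. The genome build and annotation were not given in the sources used here, so no coordinates are reported.

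All values above 0 in the deposited FPKM table were whole multiples of what 1 read is worth, within the 10 significant digits of the file, and reads, lengths, and totals were recovered from them. Totals were 7458258, 8450454, and 6501285 reads for MHPCs 1 to 3 and 9682046, 9012326, and 8670017 for adult livers 1 to 3. Intervals and floors cover counting error only, and do not allow for the choice of genes and livers on the same values.

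The members, the gene lists, and the roles were chosen with earlier results of these data known, and the roles were assigned after the values had been seen. Groups were taken from the labels. MHPCs were compared with livers by limma 3.58.1 (R 4.3.3) on log2(FPKM + 1) with a trended prior, for the 13620 genes with at least 1 FPKM in at least 3 libraries. Benjamini-Hochberg adjustment ran over all of them, with a threshold of 0.05. An exact permutation test of 3 against 3 cannot go below *P* = 0.1, so none was used. *P* values rest on the spread among passages of 1 clone and among 3 livers.

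Symbols were paired with 12816 of the 32323 identifiers. The genes named by rule were taken from the members with a symbol. They were the 4 with the largest ratio for each liver, the 4 largest differences of each sign that passed the filter, and every member on a fixed list. Values of 2 members, 1 of them under this rule, are counted but not reported by name here. Alternatives were another scaling, pseudocount, filter, model, and limit of the rule, each library left out, and a replicate block.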

Additional observations from a re-analysis of the deposited data

How the results depend on the processing

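The number of members called higher in the MHPCs (11) became 18 with libraries rescaled to a common sum, 2 with size factors, 2 with voom on the recovered reads (99 lower), and 19 with the replicate number as a block, and ran from 7 to 36 when a library was left out (7 without MHPC 2 or MHPC 3, 36 without adult liver 2). The number called lower (82) stayed within 1.5 times of that count with every other scaling, filter, pseudocount, and model and ran from 67 to 97 when a library was left out. Without the members highest in adult liver 2, an alternative added after seeing the data, 4 were called higher and 54 lower, out of fewer genes. The replicate numbers did not pair the libraries, since the correlations of the deviations of same-numbered libraries were -0.0127, -0.0019, and -0.0746. The number of members (194) followed the limits of the rule, with 88 at a ratio of 10, 428 at a ratio of 3, and 101 at 50 FPKM, and was 43 to 144 when a liver was left out. Without adult liver 2 the log2 difference of *PPBP* was 4.11. Depth limits the ratios of the 20 members with fewer than 10 reads in the lowest liver.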
